A study of Mus musculus with 6 samples.

Results

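The transcripts of the aminoacyl-tRNA synthetases were followed in oocytes of C57BL/6 mice at the end of their growth, still arrested with an intact nucleus (the germinal vesicle, GV). Members were every row of the deposited table that carried 1 of 36 listed symbols, 20 for cytosolic enzymes and 16 for mitochondrial enzymes (suffix 2), and all 36 were present among 23235 gene rows. The oocytes were wild type (WT) or lacked Rtcb (knock-out, Rtcb KO), which encodes the ligase that joins the exons of intron-containing tRNAs, with 3 libraries per genotype and 10 oocytes per library. All females had received pregnant mare serum gonadotropin (PMSG), which stimulates follicle growth, 44 to 48 h before collection, and all lysates contained ERCC spike-in RNA. The sample titles carry the mark 6W, which the labels do not explain; the sources used here do not give the deleted part of Rtcb, any Cre driver or the number of animals. Since separate animals are not stated, the p-values reflect the spread between these libraries alone, which may be technical.

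An aminoacyl-tRNA synthetase attaches an amino acid to the tRNAs that carry its anticodons, so each amino acid needs its own enzyme. Mammals keep separate nuclear genes for the cytosolic and the mitochondrial enzyme of most amino acids, whereas Gars and Kars serve both compartments from the same gene. In the cytosol a group of these enzymes is held together with scaffold proteins in the multisynthetase complex, and mitochondria make glutaminyl-tRNA indirectly, by an amidotransferase that acts on misacylated glutamyl-tRNA. Many cytosolic synthetase genes are known targets of the transcription factor ATF4, which binds C/EBP-ATF response elements when amino acids are short or the endoplasmic reticulum is stressed.

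Promoters are shown first, because a known regulator of the cytosolic genes has a recognisable element. RefSeq promoter windows (build GRCm38.p6, 250 bases before to 50 bases after the start) matched 13 cytosolic and 14 mitochondrial members. The core of the C/EBP-ATF element, searched as TGATGNAA on both strands, was found in the windows of Aars, Gars, Iars, Tars and Yars, 5 of the 13 cytosolic genes, and in 0 of the 14 mitochondrial genes. Of all 32851 windows of this length, 3.97% held it, and of the 27025 genes they belong to, 4.51% had a window with it. The 5 are all among the 8 matched genes of the list of 12 synthetases commonly named as ATF4 targets. The windows of the 5 genes with a match are printed 5′ to 3′ with the match in capitals, whole for Aars and as their last 100 bases for the others, followed by those of Aars2 and Iars2, the mitochondrial partners of Aars and Iars, as windows with no match.
Aars (chr8:111033592-111033891, plus strand): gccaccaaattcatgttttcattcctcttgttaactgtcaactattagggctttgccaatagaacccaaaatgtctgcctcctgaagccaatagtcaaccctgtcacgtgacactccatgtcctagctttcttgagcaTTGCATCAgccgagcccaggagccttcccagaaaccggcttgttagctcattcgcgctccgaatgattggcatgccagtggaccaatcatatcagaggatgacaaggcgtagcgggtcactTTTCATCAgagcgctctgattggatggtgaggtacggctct
Gars (chr6:55037951-55038050, plus strand): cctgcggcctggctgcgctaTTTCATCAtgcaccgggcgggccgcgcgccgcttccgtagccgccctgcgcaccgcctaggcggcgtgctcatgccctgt
Iars (chr13:49682080-49682179, plus strand): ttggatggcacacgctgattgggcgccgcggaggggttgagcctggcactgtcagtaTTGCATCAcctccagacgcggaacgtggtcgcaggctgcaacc
Tars (chr15:11399609-11399708, minus strand): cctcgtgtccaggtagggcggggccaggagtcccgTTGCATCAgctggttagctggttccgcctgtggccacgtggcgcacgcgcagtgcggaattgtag
Yars (chr4:129189853-129189952, plus strand): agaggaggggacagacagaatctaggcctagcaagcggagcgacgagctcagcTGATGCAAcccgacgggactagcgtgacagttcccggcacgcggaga
Aars2 (chr17:45506782-45506881, plus strand): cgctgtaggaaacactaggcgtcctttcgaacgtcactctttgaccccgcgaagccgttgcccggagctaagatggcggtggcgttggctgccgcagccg
Iars2 (chr1:185329352-185329451, minus strand): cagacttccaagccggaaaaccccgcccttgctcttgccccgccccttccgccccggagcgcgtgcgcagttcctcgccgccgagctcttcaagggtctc
A match describes these letters only; binding was not measured.

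Rtcb itself (D10Wsu52e in the table) measured 136, 133 and 113 FPKM in WT and 3.82, 2.62 and 2.49 FPKM in Rtcb KO (log2 difference -5.02, limma adjusted p = 1.36e-05) and every KO library lay far below every WT library, in the direction of the labels. Values are FPKM (fragments relative to transcript length and library size) after the authors' spike-in normalization, differences are of log2(FPKM + 1), which understates changes of low genes, and read depth is unknown. Summed FPKM ran from 1267730 to 1347014 in WT and from 943926 to 999507 in Rtcb KO. All WT columns carry a factor of 2 and all KO columns one of 4/3, whose quotient of 0.667 (-0.58 in log2) enters every deposited difference. Results are therefore given as deposited, with equal totals per library and with these factors removed, where the median of 12029 tested genes was -0.47, -0.094 and 0.044. How the factors were derived from the spike-ins is not stated. If they are the spike-in scaling, both rescalings take out any change in RNA per oocyte that all genes share. A member called lower only as deposited is then lower in spike-in units, though not called relative to other genes. All 12 oocyte markers were present (Gdf9, Zp3 and others, with means of at least 62.0 FPKM); their sum ran from 33514 to 36150 FPKM in WT and from 22992 to 24056 in Rtcb KO. Of 12 granulosa and cumulus cell markers 3 had a mean of at least 1 FPKM (Cyp19a1, Inha and Kitl) and Ptx3 was listed at 0 in every library. Their sum was 45.1 to 53.3 FPKM in WT and 31.4 to 40.6 in Rtcb KO as deposited, mostly from Cyp19a1 (mean 37.5 to 19.8 FPKM). Inha (6.38 to 10.7 FPKM) and Kitl (2.29 to 2.58 FPKM) had higher means in Rtcb KO, and neither was called as deposited. With the factors removed Kitl was called higher (limma adjusted p = 0.0356). The part of such cells in the results was not tested.

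In WT oocytes the cytosolic genes stood above the mitochondrial ones, with a summed level of 1879.5 ± 111 FPKM against 312 ± 5.69 FPKM (SD, n = 3). Qars, for glutamine, was the highest member at 357, 296 and 337 FPKM in WT and 141, 152 and 134 FPKM in Rtcb KO. Farsb, the beta subunit of the phenylalanine enzyme, came next at 301, 282 and 262 FPKM in WT and 104, 104 and 83.1 FPKM in Rtcb KO, followed by Rars, for arginine, at 196, 182 and 222 FPKM in WT and 82.2, 91.5 and 73.6 FPKM in Rtcb KO. The WT ranges of Qars and Farsb overlapped, and both lay apart from that of Rars. The highest mitochondrial member was Fars2, for phenylalanine, at 104, 100.1 and 105 FPKM in WT and 53.7, 53.2 and 55.2 FPKM in Rtcb KO, eighth in the order of all members. Rars2 (mean 57.7 FPKM) and Lars2 (mean 52.9 FPKM) followed with overlapping ranges.

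At the other end, Yars, the cytosolic enzyme for tyrosine, was at 0.377, 0.292 and 0 FPKM in WT and 0.827, 0.910 and 0.364 FPKM in Rtcb KO, and Hars2, the mitochondrial enzyme for histidine, at 0.176, 0 and 0 FPKM in WT and 0.497, 0.0709 and 0.0618 FPKM in Rtcb KO. Mars2, for methionine, was at 0.601, 0.631 and 0.549 FPKM in WT and 1.80, 1.13 and 0.924 FPKM in Rtcb KO. These 3 members had a mean below 1 FPKM over the 6 libraries and were not tested, which left 19 cytosolic and 14 mitochondrial members. For Mars2 all 3 KO libraries lay above the 3 WT libraries, while the ranges of Yars and Hars2 overlapped as deposited. With the factors removed every KO library of Yars lay above every WT library, as for 31.7% of all tested genes. The plot of levels by library shows all members.

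**Figure D1:**
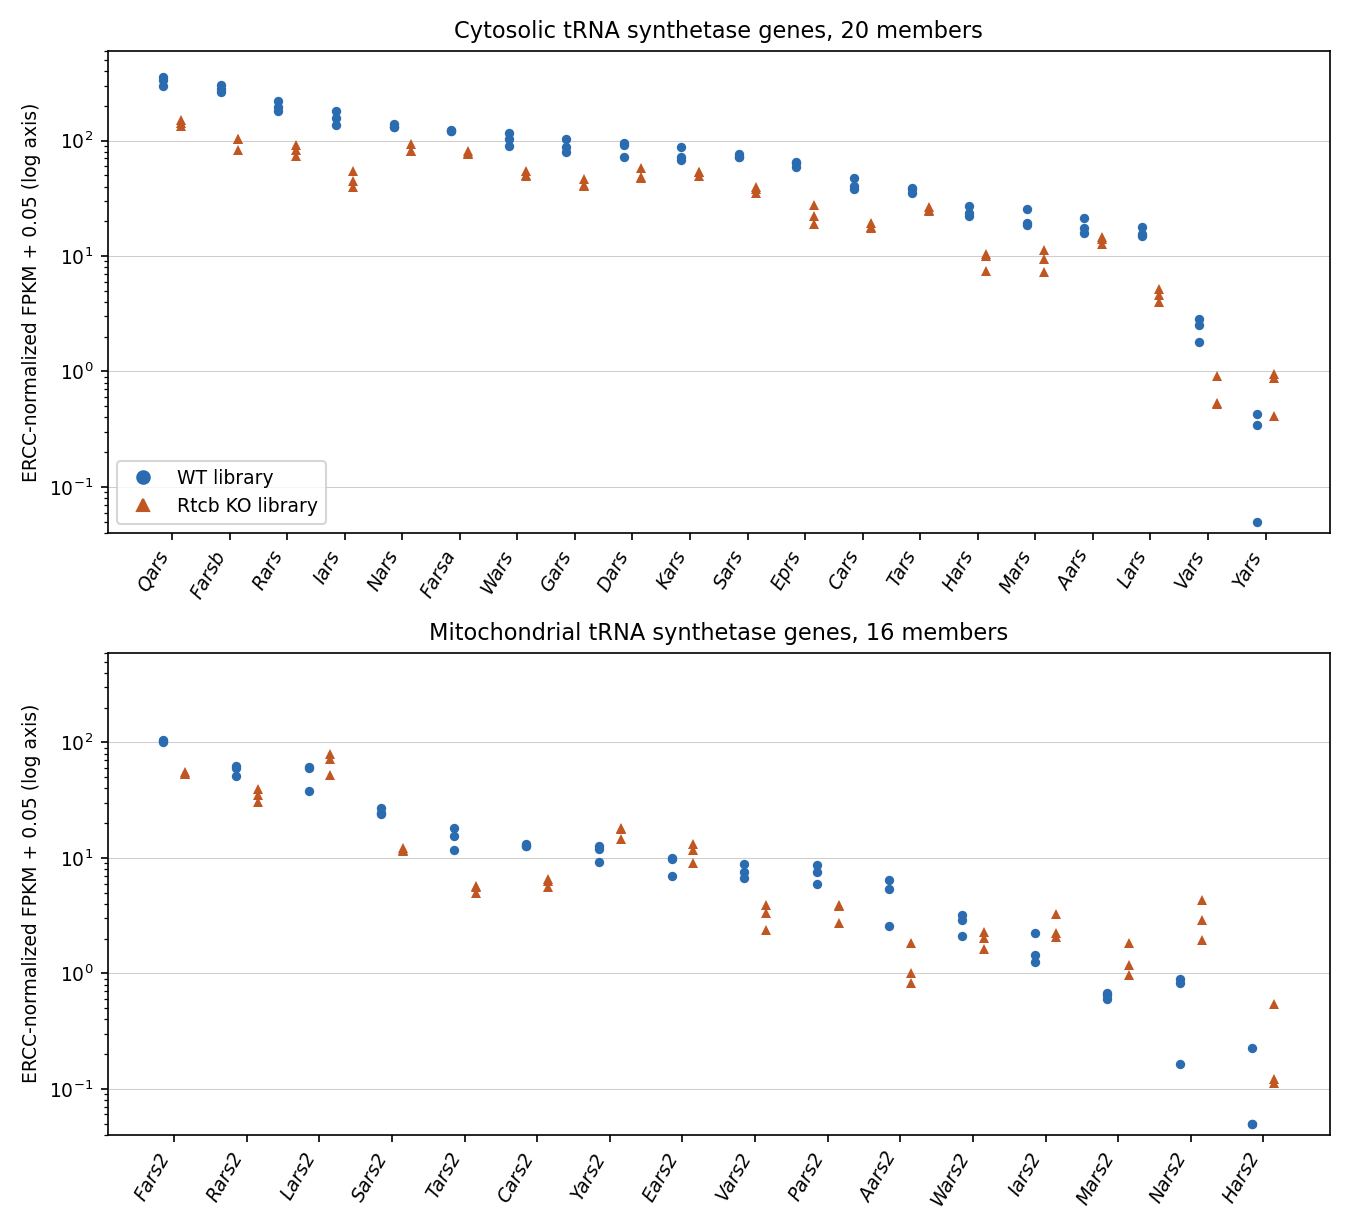
ERCC-normalized FPKM (plus 0.05, log axis) of the 20 cytosolic (top) and 16 mitochondrial (bottom) synthetase genes, ordered by their mean in WT; blue circles are the 3 WT libraries and orange triangles the 3 Rtcb KO libraries. For 19 cytosolic members every KO library lies below every WT library, and this holds for 8 mitochondrial members, with 3 the other way round. Of all tested genes 57.5% lie below in this way and 10.2% above.

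All 19 tested cytosolic members were lower in Rtcb KO by limma (adjusted p under 0.05) and 0 were higher, where 54.0% of all tested genes were called lower and 9.29% higher. With equal totals and with the genotype factors removed the counts were 13 lower and 0 higher each time, where 25.8% and 18.0% of all tested genes were lower. The same 13 members were lower in all 3 scalings, against 18.0% of all tested genes. This agreement adds nothing to the call with the factors removed, since all 2164 genes lower there were lower in the other scalings too. For higher calls the deposited scaling nearly decides, with 1110 of its 1118 genes higher in all 3. In either direction 63.3% of all tested genes were called as deposited, 44.8% with equal totals and 43.8% with the factors removed. Median-ratio scaling also gave 13 lower cytosolic members, where 21.7% of all tested genes were lower and 22.8% higher (44.5% in either direction). The median difference of the cytosolic members was -1.07 as deposited, -0.60 relative to the median of all tested genes, and -0.57 with the factors removed (-0.61 relative to all). As deposited every KO library lay below every WT library for 19 of the 20 cytosolic members (57.5% of all tested genes), and for 13 with the factors removed (24.7%). Each library pools 10 oocytes, so a lower level in every oocyte and a much lower level in some of them cannot be told apart.

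The 8 enzymes of the multisynthetase complex were all lower as deposited, with differences from -1.76 to -0.52, where 54.0% of all tested genes were lower. All 11 tested cytosolic members outside the complex were lower too. In all 3 scalings 6 of the 8 were lower, against 18.0% of all tested genes. Iars, for isoleucine, had the largest difference of log2(FPKM + 1) among the tested members, with 181, 136 and 157 FPKM in WT and 44.6, 54.1 and 39.4 FPKM in Rtcb KO (log2 difference -1.76, SE 0.15, adjusted p = 0.000162). Its KO values lay between 39.4 and 54.1 FPKM, all below the lowest WT value of 136 FPKM. Lars, for leucine and known as a leucine sensor of the mTORC1 pathway, was at 17.9, 14.9 and 15.4 FPKM in WT and 5.10, 4.56 and 3.95 FPKM in Rtcb KO (log2 difference -1.63, SE 0.14, adjusted p = 0.000164). Eprs, the fused enzyme for glutamate and proline, was at 63.3, 58.6 and 65.7 FPKM in WT and 18.8, 27.4 and 22.0 FPKM in Rtcb KO (log2 difference -1.43, SE 0.14, adjusted p = 0.000188). The KO to WT ratio of means was 0.292 for Iars, 0.282 for Lars and 0.364 for Eprs, or 0.437, 0.423 and 0.546 with the factors removed. The order depends on the scale: by ratio of means Aars2 (0.246) and Vars (0.259), both low genes, and Lars stood below Iars, and with a pseudocount of 0.1 their differences (-1.91, -1.81 and -1.81) were larger than that of Iars (-1.78).

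Rars and Qars, with the values per library given above, fell to ratios of 0.412 and 0.431 (log2 differences -1.27 and -1.21, adjusted p = 0.000166 and 0.000162). Mars, the cytosolic enzyme for methionine and hence for starting peptide chains, was at 25.6, 19.2 and 18.6 FPKM in WT and 11.3, 7.22 and 9.34 FPKM in Rtcb KO (log2 difference -1.11, SE 0.19, adjusted p = 0.00141), the least secure of the 13 with the factors removed (adjusted p = 0.0427). The remaining pair of the complex, Dars for aspartate (86.5 ± 12.1 to 51.5 ± 5.82 FPKM) and Kars for lysine (75.8 ± 10.6 to 52.3 ± 2.37 FPKM), were lower as deposited; without the factors neither was called, with differences of -0.16 and 0.056. The 12 cytosolic members outside the complex, 11 of them tested, had a median of -0.99, against -1.24 for the complex; these medians carry no test.

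Outside the complex the phenylalanine enzyme showed unequal subunits. Farsb, its beta subunit, fell to 0.345 of WT (log2 difference -1.53, SE 0.11, adjusted p = 0.000162), and this held with the factors removed (log2 difference -0.95, adjusted p = 0.00114). Farsa, the alpha subunit, went from 122 ± 0.981 to 78.7 ± 2.58 FPKM (log2 difference -0.62, SE 0.081, adjusted p = 0.00042), and with the factors removed its difference was -0.043 (adjusted p = 0.692). The difference between the subunits was not tested.

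Hars, for histidine, was at 22.3, 26.9 and 23.4 FPKM in WT and 10.4, 7.43 and 10.0 FPKM in Rtcb KO (log2 difference -1.30, adjusted p = 0.000309). Cars, for cysteine, was at 47.3, 40.4 and 38.4 FPKM in WT and 19.2, 17.4 and 18.0 FPKM in Rtcb KO (log2 difference -1.16, adjusted p = 0.000193). Gars, for glycine in both compartments, was at 104, 88.2 and 80.2 FPKM in WT and 41.6, 40.1 and 46.4 FPKM in Rtcb KO (log2 difference -1.07, adjusted p = 0.000267). In these 3 genes every KO library lay below every WT library. Wars, for tryptophan, was at 116, 103 and 90.2 FPKM in WT and 49.9, 55.0 and 49.3 FPKM in Rtcb KO (log2 difference -0.99, adjusted p = 0.000289). Sars, for serine and, with the selenocysteine tRNA, the first step towards selenocysteine, was at 77.0, 72.0 and 72.6 FPKM in WT and 35.2, 39.6 and 38.0 FPKM in Rtcb KO (log2 difference -0.96, adjusted p = 0.000183). Vars, for valine, was low throughout, at 2.45, 2.78 and 1.76 FPKM in WT and 0.471, 0.857 and 0.484 FPKM in Rtcb KO (log2 difference -1.05, adjusted p = 0.00182). Vars passed the filter on low values through its WT level, with a KO mean of 0.604 FPKM, and the filter thus favoured a difference. These complete the 13 members called lower in all 3 scalings.

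The 6 other tested cytosolic members were Aars, Dars, Farsa, Kars, Nars and Tars. Nars, for asparagine, went from 134 ± 4.66 to 85.6 ± 7.20 FPKM and Tars, for threonine, from 37.0 ± 1.79 to 25.4 ± 1.11 FPKM, both called lower as deposited (adjusted p = 0.000647 and 0.0023). With the factors removed none of the 6 was called, and their differences lay between -0.16 (Dars) and 0.18 (Aars), with Aars, Kars and Tars turning positive. Aars, for alanine, at 21.2, 17.3 and 15.8 FPKM in WT and 13.9, 12.8 and 14.6 FPKM in Rtcb KO, had the smallest deposited difference (log2 difference -0.37, SE 0.14, adjusted p = 0.0499). Its call was lost when any library other than WT 3 was left out (adjusted p from 0.0796 to 0.145).

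As deposited 8 of 14 tested mitochondrial members were lower, 2 were higher and 4 were not called, where 54.0% of all tested genes were lower and 9.29% higher, so the share called lower was near that of all genes. With equal totals 6 were lower and 5 higher, where 25.8% of all tested genes were lower and 19.0% higher. With the factors removed 6 were again lower and 5 higher, where 18.0% were lower and 25.8% higher. In all 3 scalings 6 were lower (18.0% of all tested genes) and 2 higher (9.23%). The median of the mitochondrial members was -0.81 as deposited and -0.24 with the factors removed, which is -0.34 and -0.29 relative to all tested genes, and their differences ran from -1.37 to 1.34.

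Tars2, for threonine, was at 18.0, 15.4 and 11.8 FPKM in WT and 5.58, 4.92 and 5.65 FPKM in Rtcb KO (log2 difference -1.31, SE 0.17, adjusted p = 0.000429). Aars2, for alanine, was at 6.43, 5.29 and 2.51 FPKM in WT and 0.953, 0.773 and 1.77 FPKM in Rtcb KO (log2 difference -1.37, SE 0.30, adjusted p = 0.00516). Both had larger deposited differences than their cytosolic namesakes, and with the factors removed the WT and KO ranges of Aars2 overlapped. Sars2, for serine, was at 27.1, 24.7 and 24.0 FPKM in WT and 11.3, 11.7 and 12.0 FPKM in Rtcb KO (log2 difference -1.05, adjusted p = 0.00022). Vars2, for valine, was at 8.73, 7.48 and 6.72 FPKM in WT and 2.34, 3.86 and 3.27 FPKM in Rtcb KO (log2 difference -1.07, adjusted p = 0.00151). For valine both genes were low in WT and both fell, with ratios of means of 0.259 for Vars and 0.413 for Vars2. Cars2, for cysteine, was at 13.0, 12.7 and 12.7 FPKM in WT and 6.57, 5.60 and 6.28 FPKM in Rtcb KO (log2 difference -0.95, adjusted p = 0.000442). Fars2, the highest of the group in WT, fell to 0.525 of WT (log2 difference -0.92, adjusted p = 0.000165). Pars2, for proline (7.36 ± 1.40 to 3.45 ± 0.651 FPKM), and Rars2, for arginine (57.7 ± 5.92 to 34.9 ± 4.34 FPKM), were lower as deposited only (adjusted p = 0.102 and 0.393 with the factors removed). Wars2, for tryptophan (2.69 ± 0.562 to 1.94 ± 0.332 FPKM), was not called in any scaling.

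Nars2, the mitochondrial enzyme for asparagine, rose, with 0.850, 0.769 and 0.113 FPKM in WT and 4.26, 1.88 and 2.86 FPKM in Rtcb KO (log2 difference 1.34, SE 0.28, adjusted p = 0.00399). It passed the filter on low values through its KO level alone, as Vars did through its WT level, and its ratio of means, 5.20, ranged from 3.71 (without WT 3) to 6.81 (without WT 1). Yars2, for tyrosine, rose, with 12.7, 9.12 and 12.0 FPKM in WT and 17.9, 14.5 and 18.2 FPKM in Rtcb KO (log2 difference 0.55, SE 0.16, adjusted p = 0.0172), a call lost as deposited without WT 2, KO 1 or KO 3 (adjusted p = 0.0639, 0.0581 and 0.0638). For both genes every KO library lay above every WT library, also with the factors removed.

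Another 3 mitochondrial members were higher with equal totals and with the factors removed but were not called as deposited. Lars2, for leucine, was at 37.7, 59.7 and 61.2 FPKM in WT and 71.8, 52.1 and 79.4 FPKM in Rtcb KO (log2 difference 0.36, 95% interval -0.14 to 0.87; 0.94 with the factors removed, adjusted p = 0.0112). Ears2, for glutamate, was at 9.99, 9.81 and 6.92 FPKM in WT and 13.2, 9.07 and 11.7 FPKM in Rtcb KO (log2 difference 0.32, 95% interval -0.12 to 0.75; 0.84 with the factors removed, adjusted p = 0.00942). Iars2, for isoleucine, was at 2.17, 1.40 and 1.20 FPKM in WT and 3.22, 2.004 and 2.198 FPKM in Rtcb KO (log2 difference 0.42, 95% interval -0.059 to 0.91; 0.81 with the factors removed, adjusted p = 0.0162). In deposited units the ranges of each overlapped between the genotypes, and with the factors removed they did not. With the factors removed every KO library lay above every WT library for 6 of the 16 mitochondrial members, these 3 with Mars2, Nars2 and Yars2, and for 31.7% of all tested genes (10.2% as deposited, where 3 members did so).

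**Figure D2:**
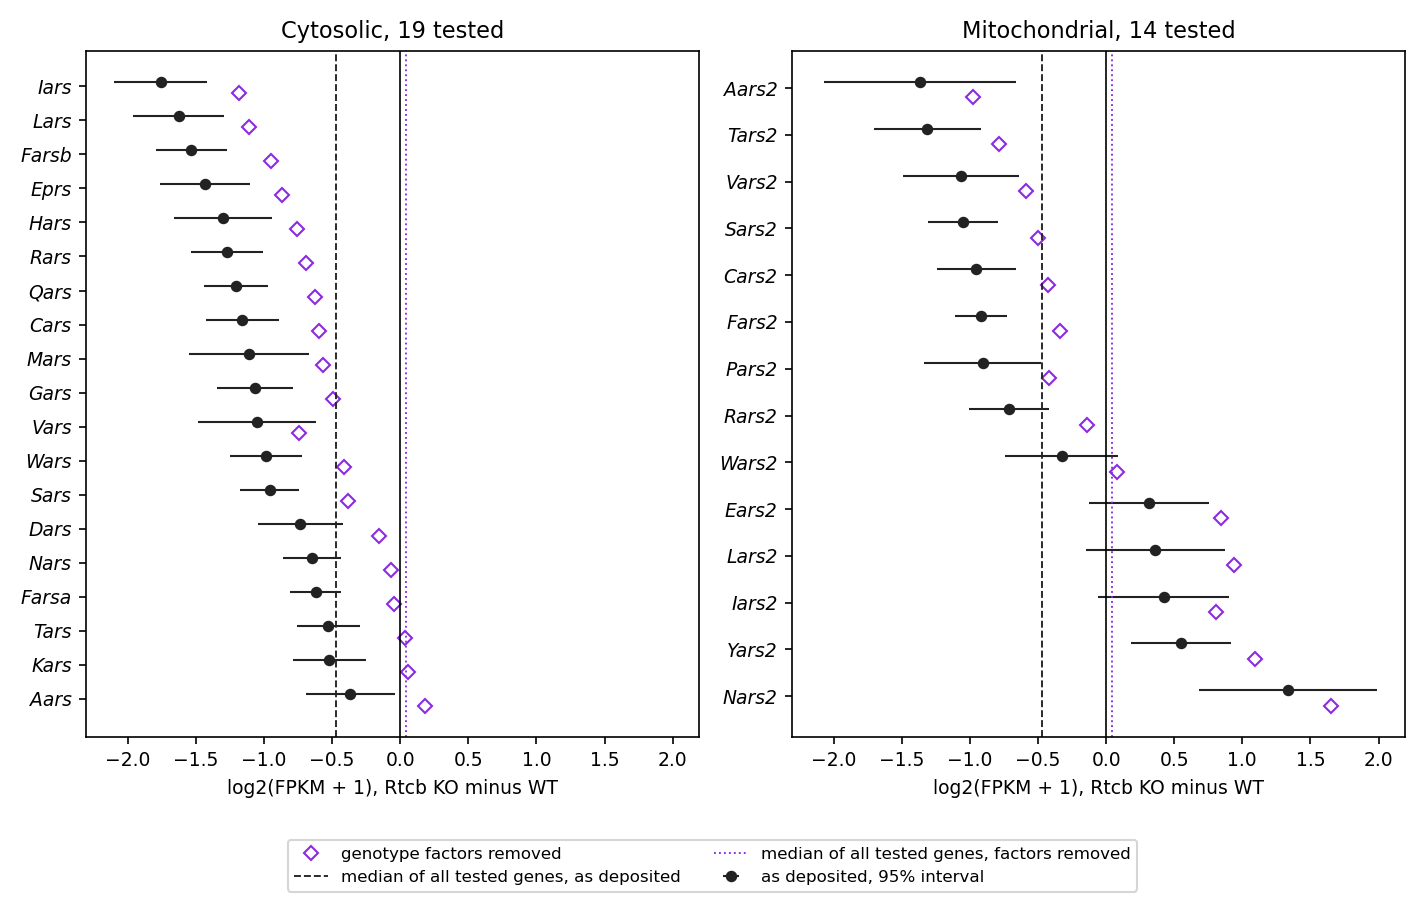
Difference of log2(FPKM + 1), Rtcb KO minus WT, of the 19 cytosolic (left) and 14 mitochondrial (right) tested members; black points with 95% limma intervals are as deposited, open diamonds have the genotype factors removed, and vertical lines mark 0 and the medians of all tested genes. All 19 black points on the left lie below 0, and 5 of 14 on the right lie above it. Of all 12029 tested genes 9227 lie below 0 and 2802 above it as deposited.

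Because the factors act on whole libraries, each cytosolic gene was also set against its mitochondrial partner within a library, as a log2 ratio of FPKM + 1, for 17 pairs. The added 1 leaves part of the factors in a ratio where 1 gene is near or below 1 FPKM. Yars, Vars, Hars2, Iars2, Mars2 and Nars2 are such genes. In Rtcb KO the ratio was lower in every library than in any WT library for 10 pairs, higher for 3, and overlapped for 4. How often the ratio of any other 2 genes separates the genotypes was not computed, so these counts have no background. Single genes did so often, with 57.5% of all tested genes below and 10.2% above as deposited. With the factors removed, which is closer to a ratio within a library, these shares were 24.7% below and 31.7% above. The exact permutation test (two-sided, 3 against 3 libraries) gave p = 0.1, the smallest it can reach, for these 13 pairs (Benjamini-Hochberg adjusted p = 0.131 over the 17), so this test cannot bring a pair under 0.05 with 3 libraries a group; no other test was run on the ratios. Eprs and Fars2 each stand in 2 pairs.

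The ratio of Iars to Iars2 was 5.84, 5.83 and 6.16 in WT and 3.44, 4.20 and 3.66 in Rtcb KO, a shift of -2.18. The ratio of Lars to Lars2 was -1.04, -1.93 and -1.92 in WT and -3.58, -3.26 and -4.02 in Rtcb KO, a shift of -1.99, and Lars2 exceeded Lars in every library. For both amino acids the shift joins a fall of the cytosolic gene to a mitochondrial gene that was not called lower. Nars to Nars2 shifted by -1.98, Eprs to Ears2 by -1.75 and Mars to Mars2 by -1.61. Hars to Hars2 shifted by -1.48, but with Hars2 near 0 this mostly repeats the fall of Hars. The other pairs with a lower ratio, Wars, Farsb, Rars and Cars with their partners, shifted between -0.66 and -0.21.

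In the opposite direction, the ratio of Aars to Aars2 was 1.58, 1.54 and 2.26 in WT and 2.93, 2.96 and 2.49 in Rtcb KO, a shift of 1.00. The ratio of Tars to Tars2 was 1.05, 1.24 and 1.495 in WT and 2.07, 2.14 and 1.93 in Rtcb KO, a shift of 0.78. The third pair with a higher ratio was Farsa to Fars2, at 0.30, and in all 3 the mitochondrial gene had the larger fall. Sars to Sars2 (0.092), Vars to Vars2 (0.016), Yars to Yars2 (-0.077) and Eprs to Pars2 (-0.53) overlapped between the genotypes.

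**Figure D3:**
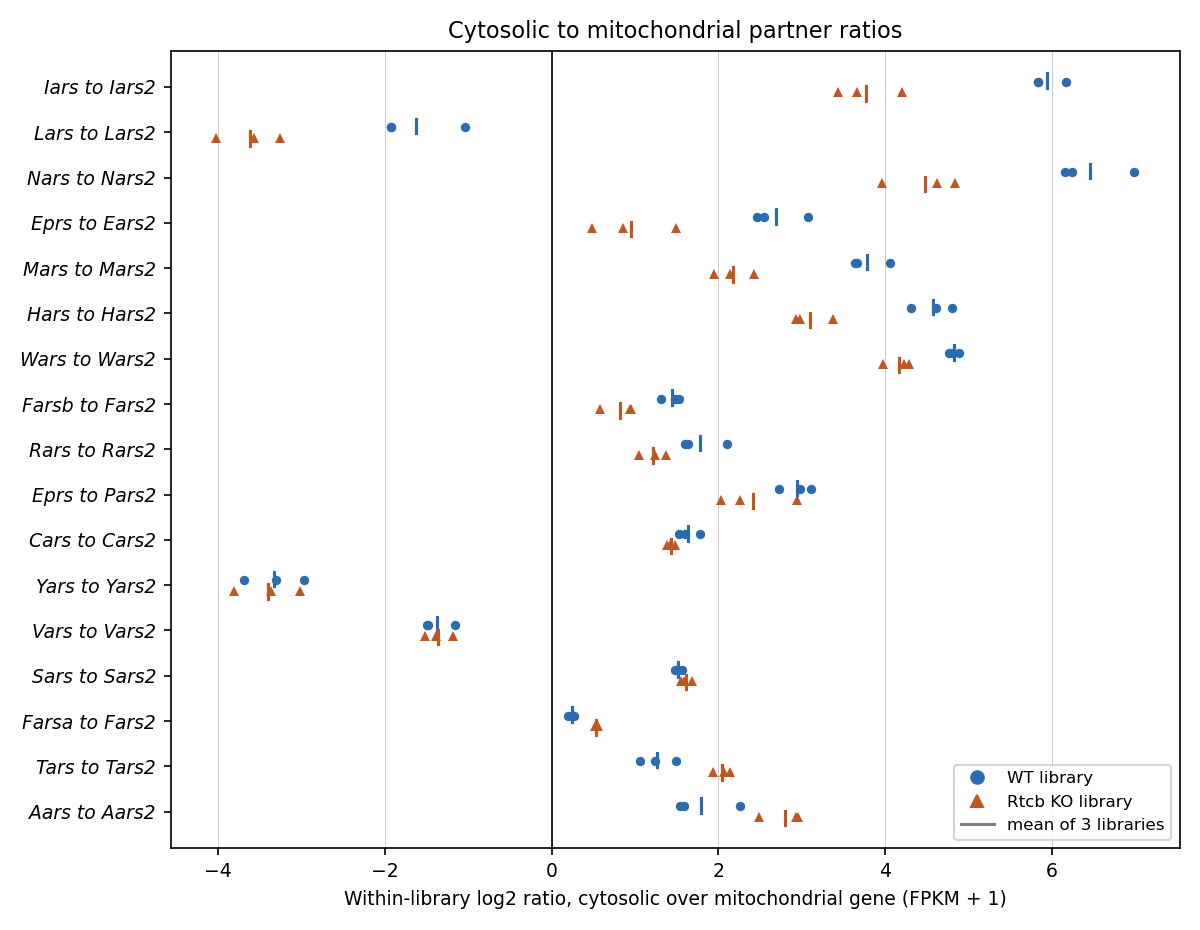
Within-library log2 ratio of each cytosolic gene to its mitochondrial partner (FPKM + 1) for 17 pairs, ordered by the shift from WT to Rtcb KO; circles are WT libraries, triangles Rtcb KO libraries and short lines the means of 3. The KO points lie left of the WT points for 10 pairs and right of them for 3, and no share over other gene pairs was computed.

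As a share of all FPKM in a library, which no factor changes, the cytosolic members held 1360.2 to 1582 ppm in WT and 868 to 923 in Rtcb KO, a ratio of means of 0.625. The mitochondrial members held 227 to 249 ppm in WT and 200.3 to 253 in Rtcb KO (ratio 0.973). Lars2 carries part of this: without it the mitochondrial share went from 198 ± 19.2 to 162 ± 14.3 ppm, a ratio of 0.817. The gap between the median log2 level of cytosolic and of mitochondrial members was 2.93 to 3.17 in WT and 2.74 to 2.93 in Rtcb KO, a difference of means of -0.21. These sums and medians describe the members and carry no test.

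The synthetases fall into 2 structural classes with unrelated catalytic folds. Of 16 tested class I members 11 were lower and 1 was higher, with a median of -1.02, and of 16 tested class II members 15 were lower and 1 was higher, with a median of -0.91, where 54.0% of all tested genes were lower and 9.29% higher. Eprs joins a domain of each class and was counted in neither. With the factors removed the counts were 10 lower and 4 higher for class I and 8 lower and 1 higher for class II, where 18.0% of all tested genes were lower and 25.8% higher.

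The 11 tested members commonly listed as ATF4 targets had a median of -1.07 and the 8 other tested cytosolic members one of -1.13. Among the 5 genes with the C/EBP-ATF core in the printed windows, the differences of log2(FPKM + 1) were -1.76 for Iars, -1.07 for Gars, -0.53 for Tars and -0.37 for Aars, and Yars was below the filter. Atf4 itself was at 311, 277 and 269.6 FPKM in WT and 302, 206 and 298 FPKM in Rtcb KO (log2 difference -0.11, 95% interval -0.46 to 0.25, adjusted p = 0.559); its difference was 0.48 with the factors removed (adjusted p = 0.037). Eif2ak4, which encodes GCN2, the kinase that senses uncharged tRNA, fell from 25.2 ± 2.87 to 7.89 ± 0.896 FPKM (log2 difference -1.56, adjusted p = 0.000164), also with the factors removed (-1.02). Asns, asparagine synthetase, went from 3.07 to 1.21 FPKM and was called lower as deposited only (adjusted p = 0.00977, 0.107 with the factors removed). Chac1 rose (7.08 to 21.1 FPKM, adjusted p = 0.000777), and Trib3 (1.46 to 2.02 FPKM) and Ddit3 (243 to 219 FPKM) were not called as deposited (adjusted p = 0.339 and 0.395). With the factors removed Ddit3 was called higher (0.45, adjusted p = 0.0255) and Trib3 was not (adjusted p = 0.0632).

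Another 20 genes, called other tRNA charging genes here, form a mixed list. It includes scaffolds, editing factors, deacylases, peptidyl-tRNA hydrolases, selenocysteine genes and elongation factors, not all of which charge tRNA. Of these 20 genes 5 rose, 8 fell and 7 were not called as deposited (9.29% of all tested genes were higher and 54.0% lower). Their median was -0.13, or 0.35 relative to all tested genes. In all 3 scalings 5 were higher (9.23% of all tested genes) and 1 was lower (18.0%). The scaffolds of the multisynthetase complex, Aimp1 (62.3 ± 3.17 to 59.7 ± 4.69 FPKM) and Aimp2 (143 ± 15.0 to 143 ± 8.85 FPKM), were not called as deposited (95% intervals of the log2 difference -0.29 to 0.16 and -0.24 to 0.24) and were higher with the factors removed (adjusted p = 0.00523 and 0.00378). Each of the 8 complex enzymes has a lower point estimate than these 2 scaffolds in every scaling. Eef1e1, the third scaffold, fell as deposited (350.5 ± 55.7 to 186 ± 65.7 FPKM, adjusted p = 0.00779) but did not pass once the factors were removed (adjusted p = 0.223).

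Qrsl1, the catalytic subunit of the mitochondrial amidotransferase, rose, with 3.93, 4.05 and 0.908 FPKM in WT and 13.3, 6.77 and 6.70 FPKM in Rtcb KO (log2 difference 1.39, SE 0.41, adjusted p = 0.0182), a call lost without KO 1 (adjusted p = 0.058). Its partners Gatb, listed as Pet112l (1.19 to 0.962 FPKM), and Gatc (7.73 to 4.79 FPKM) did not rise: Gatb was not called, and Gatc was lower as deposited only, a call lost without WT 2 or KO 3. Ears2, which supplies the misacylated substrate of this enzyme, is described above with the same direction as Qrsl1 when the factors are removed.

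Genes of the selenocysteine branch moved apart. Sephs2, which makes the selenium donor selenophosphate, fell, with 295, 357 and 237 FPKM in WT and 109, 126 and 112 FPKM in Rtcb KO (log2 difference -1.33, SE 0.15, adjusted p = 0.000248). Sephs1, its paralog, rose, with 2.46, 2.19 and 1.62 FPKM in WT and 9.98, 4.61 and 6.98 FPKM in Rtcb KO (log2 difference 1.36, SE 0.25, adjusted p = 0.00211). Pstk, the kinase that acts on seryl-tRNA of the selenocysteine kind, rose, with 61.6, 68.8 and 55.8 FPKM in WT and 93.4, 87.9 and 85.3 FPKM in Rtcb KO (log2 difference 0.51, SE 0.10, adjusted p = 0.00332). No WT and KO values of these 3 genes overlapped, and all 3 calls held in the 3 scalings. Sepsecs, the next enzyme of the branch (42.7 to 49.5 FPKM), was not called as deposited (adjusted p = 0.249) and was higher with the factors removed (adjusted p = 0.00464).

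Prorsd1, a homolog of the editing domain of bacterial prolyl-tRNA synthetase, rose from 8.41 to 13.5 FPKM (adjusted p = 0.00794), and Ptrh2, a peptidyl-tRNA hydrolase, from 41.8 to 55.7 FPKM (adjusted p = 0.0297; lost without WT 1, WT 2, KO 1 or KO 3, up to 0.107). The other genes that fell as deposited, Mtfmt, Dtd1, Aarsd1, Eef1a1 and Tufm, lay between -0.52 and -0.27 and had positive differences with the factors removed, where Aarsd1 was called higher (adjusted p = 0.037). The deposited call of Aarsd1 was lost with the replicate block (0.0677), with no intensity trend (0.0688) and without WT 1, WT 2, KO 1 or KO 2 (adjusted p up to 0.117). That of Tufm was lost without the same libraries (up to 0.0938) and that of Dtd1 without WT 2 (0.0521). Tarsl2, a relative of Tars (3.67 to 3.19 FPKM), was not called in any of these scalings (adjusted p = 0.451 as deposited). Dtd2 and Ptrhd1 were not called as deposited and were higher with the factors removed.

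**Figure D4:**
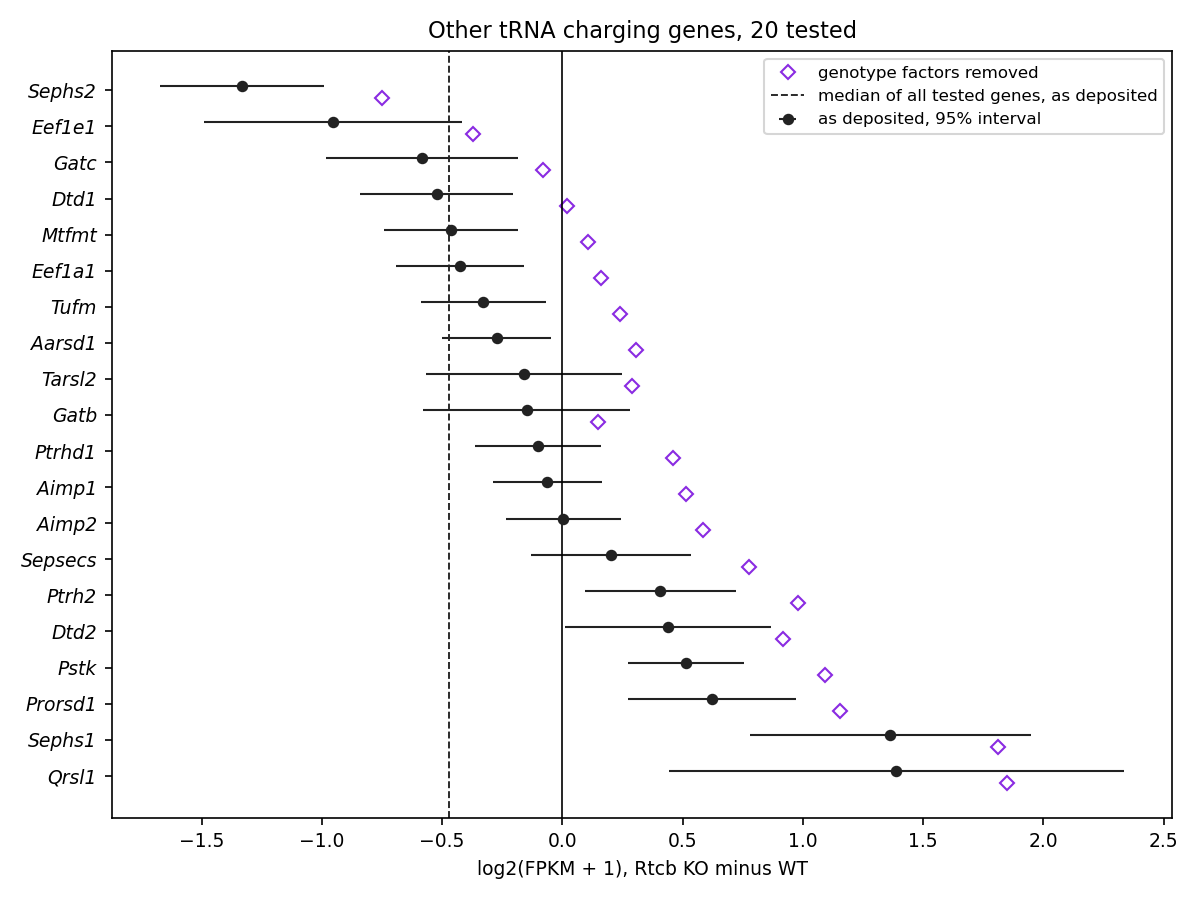
Difference of log2(FPKM + 1), Rtcb KO minus WT, of the 20 other tRNA charging genes; black points with 95% limma intervals are as deposited, open diamonds have the genotype factors removed, and the dashed line is the median of all tested genes. Sephs2 and Eef1e1 lie lowest, Sephs1 and Qrsl1 highest.

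Gene models were taken from GENCODE vM21, an annotation of another build, for properties only. Exons of 12 of the 36 members share bases with another gene's exons there, 11 of them with a gene on the opposite strand, and nothing in the labels says that strand was used, so such reads cannot be told apart. Iars2 shares 2034 of 5471 transcript bases with Rab3gap2, which fell (32.9 to 10.7 FPKM). Iars2 was much lower (means of 1.59 FPKM in WT and 2.47 in Rtcb KO) and was not called as deposited. The part of Rab3gap2 reads in its level was not tested. Aars shares 1326 of 5750 bases with Exosc6, which rose (12.0 to 23.6 FPKM), and Mars shares 67 bases with Ddit3. Iars has a processed pseudogene, Gm4849, that matches 1656 aligned bases at 96.0% identity, so its level is uncertain by what was counted there. Farsb, Cars2, Fars2, Ears2, Nars2 and Vars2 share between 89 and 422 bases with a neighbour.

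Of the members, Hars and Hars2 lie side by side on opposite strands, and Iars2 and Eprs are separated by Bpnt1 alone. Across these neighbours Eprs fell, Bpnt1 rose (5.22 to 7.56 FPKM, adjusted p = 0.0384) and Iars2 was higher with the factors removed. Across the 33 tested members the Spearman correlation of the log2 difference with the exon number of the longest coding transcript was -0.45, and across 10188 tested genes with a model (84.7%) it was -0.31. Genes are not independent replicates, and these values are a description without a test.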

How the data were processed

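Per the labels' protocols, cDNA of 10 pooled oocytes per library was made by Smart-seq2 and sequenced as paired ends. The submitters' processing notes name build mm9, TopHat2 2.1.1 and Cufflinks 2.2.1; no source used here gives the annotation or filters. The authors deposited 1 FPKM value for each gene symbol and library, scaled to ERCC spike-ins, per the file header and labels. The common factor of each column was found as the fraction, of 252 tried, whose removal gave every value from 1 upward as a number of 6 significant digits (100% of values in each library, at most 76.8% for the next fraction; tolerance 0.01 of the last digit). It is known up to powers of 10.

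The 12029 genes whose mean reached 1 FPKM were tested as log2(FPKM + 1), using limma 3.58.1 under R 4.3.3 (eBayes with intensity trend), two-sided, Benjamini-Hochberg adjusted over all tested genes, called under 0.05; this step was tested on simulated data. Rescaled values kept this gene set; other pseudocounts, filters, a replicate block and leaving out each library were also tried. Members and lists were chosen with earlier results of these data known. Every member is named; values per library are given for members called alike in the 3 scalings, those higher in any, the highest and lowest of each compartment, and the pairs that shifted most. Values of Mars2, the remaining charging genes and the overlapping or neighbouring genes were added after they were seen. Gm4849 and overlaps came from blastn 2.17.0 (at least 95% identity over 100 bases) and exon positions. Promoters came from RefSeq; Cars, Hars, Lars, Nars, Rars, Vars, Wars, Hars2 and Pars2 were not matched. A further 2 charging genes, beyond the 20 listed, are not reported here. Depth per library is unknown.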

Additional observations from a re-analysis of the deposited data

How the results depend on the processing

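Of the 19 cytosolic calls, 18 or 19 held with pseudocounts of 0.1 and 5, no filter, no intensity trend, the replicate block and without any single library, with Aars the call that was lost; with a mean of at least 10 FPKM 18 were tested and 17 called. Counts that moved by over 1.5 times follow. With a mean of at least 10 FPKM, which tests fewer genes, mitochondrial calls were 1 higher and 4 lower, other charging genes 3 higher and all genes 490 higher. Mitochondrial members higher were 5 with equal totals, median-ratio scaling and the factors removed, against 2 as deposited; other charging genes were 10, 10 and 11 higher and 1 lower each time, against 5 and 8. All tested genes were 1118 higher and 6501 lower as deposited, 2283 and 3107 with equal totals, 2746 and 2606 with median-ratio scaling, and 3099 and 2164 with the factors removed. These follow from the scaling itself. Leaving out 1 library gave 1 to 3 mitochondrial members higher (1 without WT 2, KO 1 or KO 3) and 3 to 6 (3 without KO 1) other charging genes higher and 4 to 8 (4 without WT 2) lower. The median gap between compartments, -0.21, was -0.40 with a pseudocount of 5, -0.66 with means and -0.38 without Gars and Kars, but -0.12 with a pseudocount of 0.1, -0.12 without Lars2 and -0.14 with the factors removed (the cause was not tested), and -0.26 to -0.14 without single libraries.

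Differences that changed sign follow, in the order equal totals, median-ratio scaling and factors removed where 3 values are given. They were 0.040, 0.12 and 0.18 for Aars; 0.18, 0.24 and 0.29 for Tarsl2; 0.36, 0.44 and 0.51 for Aimp1; 0.072, 0.11 and 0.15 for Gatb; 0.15, 0.24 and 0.31 for Aarsd1; 0.31, 0.39 and 0.46 for Ptrhd1; 0.0065, 0.088 and 0.16 for Eef1a1; 0.090, 0.17 and 0.24 for Tufm; 0.32, 0.41 and 0.48 for Atf4; 0.30, 0.38 and 0.45 for Ddit3. With median-ratio scaling and the factors removed they were Wars2 0.031 and 0.080 and Mtfmt 0.038 and 0.11. With the factors removed alone they were Kars 0.056, Tars 0.038 and Dtd1 0.020. Without single libraries Aimp2 was -0.061 to 0.084, Atf4 -0.20 to 0.072 (positive without KO 2) and Ddit3 -0.22 to 0.0073 (positive without WT 3).

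Same-numbered WT and KO libraries correlated at 0.141, -0.099 and 0.038 in their deviations from the group means. Differently numbered pairs ran from -0.243 to 0.172, so this check cannot decide whether same-numbered libraries share more than a number. With the replicate block 18 cytosolic members were lower and 0 higher, 8 mitochondrial members lower and 2 higher, 7 other charging genes lower and 5 higher, and 6432 genes lower and 1108 higher. The partner ratios, whose alternatives were chosen after seeing the data like the omission of Lars2, gave 10 or 11 pairs lower and 3 or 4 higher under each of them. Replicates (3 per genotype) limit the exact tests, and with depth unknown no counting error can be given for members near 1 FPKM.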
